A study of Mus musculus with 8 samples.

Results

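Cirbp and Rbm3 encode the paired cold-inducible RNA-binding proteins of mammals, and their transcripts were followed here in the suprachiasmatic nucleus (SCN), the hypothalamic seat of the master circadian clock. The members were the probe sets whose platform annotation named exactly 1 symbol and that symbol was Cirbp or Rbm3. They came to 4 of 28853 probe sets, 1 for Cirbp and 3 for Rbm3, and stood for 2 of 19938 genes. Rbm3 was represented by the brightest of its 3, judged by its average across arrays. Both genes passed the filter on low values, as did 12452 genes in all.

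The animals were C57BL/6J mice of 2 genotypes, Gpr176-/- and wild type. Gpr176, made in SCN neurons, is a G protein-coupled receptor with no known ligand. All mice had first lived under 12 h of light and 12 h of darkness for over 2 weeks and were then kept in constant darkness until sampling at circadian time 18 (CT18, subjective night) or 6 (CT6, subjective day). The 4 groups were Gpr176-/- at CT18, Gpr176-/- at CT6, wild type at CT18 and wild type at CT6. There were 2 arrays per group, lettered A and B. For each array the SCN of 10 mice were laser-microdissected and pooled, so 80 mice were used in all and no value stands for a single mouse. The labels give no age or sex and do not say which part of Gpr176 was deleted.

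Each of the 2 proteins carries a single RNA recognition motif followed by an arginine- and glycine-rich tail. Mild cooling raises their RNA in many cell types and warming lowers it, whereas heat shock genes, driven by the transcription factor HSF1, respond the other way. Mice are active at night and are then warmer than in daytime, and in cultured fibroblasts and in liver the CIRBP RNA follows the daily temperature cycle. CIRBP is known to bind RNAs of clock components, Clock among them, and both proteins influence which polyadenylation site a transcript uses. In neurons RBM3 is known for preserving synapses after cooling.

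The sequence below is shown because the mouse Cirbp promoter is reported to carry a mild cold-responsive element bound by SP1. It is the RefSeq window of 250 bases before an annotated Cirbp start, plus strand, build GRCm38.p6, chr10:80167589-80167838, with the 1 match to that element (TCCCCGCC) in capitals.
Cirbp promoter: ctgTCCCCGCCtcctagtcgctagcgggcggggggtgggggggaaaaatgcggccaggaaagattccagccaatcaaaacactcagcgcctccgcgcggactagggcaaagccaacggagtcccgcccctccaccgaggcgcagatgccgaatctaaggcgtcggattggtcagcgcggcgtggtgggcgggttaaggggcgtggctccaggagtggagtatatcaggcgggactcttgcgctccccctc
The element was searched on both strands and lay 247 to 240 bases before the start. Of 32851 upstream windows of the same length, 4.64% held it. The window also had 3 GC boxes (GGGCGG, in 32.7% of all windows) and 2 CCAAT boxes (CCAAT, in 33.8%), none of which overlapped the cold-responsive element. It had no match to the E-box CACGTG (6.02% of windows), the D-box TTATGTAA (0.819%) or the cyclic AMP response element TGACGTCA (1.55%). Nor did it match the heat shock element, searched as GAA, TTC and GAA with 2 free bases between them (0.466%). The second annotated Cirbp start had 4 GC boxes in its upstream window and no match to the other 6 motifs. These are matches of letters only, and no binding was measured.

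As a check of genotype, the Gpr176 probe set lay between 8.02 and 8.56 log2 in the 4 Gpr176-/- arrays and between 9.31 and 9.87 in the 4 wild-type arrays. The Gpr176-/- signal was thus lower but still above the filter on low values. It rose at CT18 by 0.44 in Gpr176-/- (limma adjusted p = 0.00507) and by 0.46 in wild type (adjusted p = 0.00436). As a check of tissue, all 12 SCN marker genes looked at, among them Six6, Avp, Vip and Syt10, were above the filter level of 6.82. So were 12452 of 19938 genes, and all 7 oligodendrocyte and 8 astrocyte markers measured, so this check is a weak one. Markers of other hypothalamic neurons were mixed, with Oxt at a mean of 11.7 and Crh, Pomc, Hcrt and Pmch under the filter level. Values below are log2 levels after quantile normalization of the deposited log2 table, and levels of different probe sets are not comparable with each other. In these tissue pools, fewer cells of a type and less RNA per cell cannot be told apart.

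Both transcripts were lower in subjective night than in subjective day. Cirbp stood at 9.53 and 9.60 in Gpr176-/- at CT18, against 9.85 and 9.68 in Gpr176-/- at CT6. In wild type it stood at 9.38 and 9.48 at CT18, against 9.82 and 9.85 at CT6. Every CT18 array lay below every CT6 array. Over both genotypes Cirbp averaged 9.50 at CT18 and 9.80 at CT6, a difference of -0.30 ± 0.0482 (SE of the limma fit, adjusted p = 0.00262), a change in signal of -18.9%.

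Rbm3 was lower at CT18 too. Its level was 10.16 and 10.32 in Gpr176-/- at CT18, against 10.50 and 10.39 in Gpr176-/- at CT6. In wild type it was 10.12 and 10.18 at CT18, against 10.53 and 10.55 at CT6. The CT18 and CT6 arrays did not overlap for Rbm3 either. The difference over both genotypes was -0.30 ± 0.0476 (limma adjusted p = 0.00262), a change in signal of -18.7%. An exact permutation test of 4 CT18 against 4 CT6 arrays, two-sided, gave p = 0.0286 for each gene, the smallest that 70 regroupings allow.

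Both members were thus among the genes called lower, which made up 6.79% of the genes tested (846 of 12452 at a limma adjusted p under 0.05). A complete separation of this kind, with all CT18 arrays below all CT6 arrays, was seen for 8.30% of genes tested. By size of change Cirbp came at place 214 and Rbm3 at place 222 among the 846 lower calls. The clock genes Per1 (-1.72) and Dbp (-1.55) had larger falls.

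**Figure D1:**
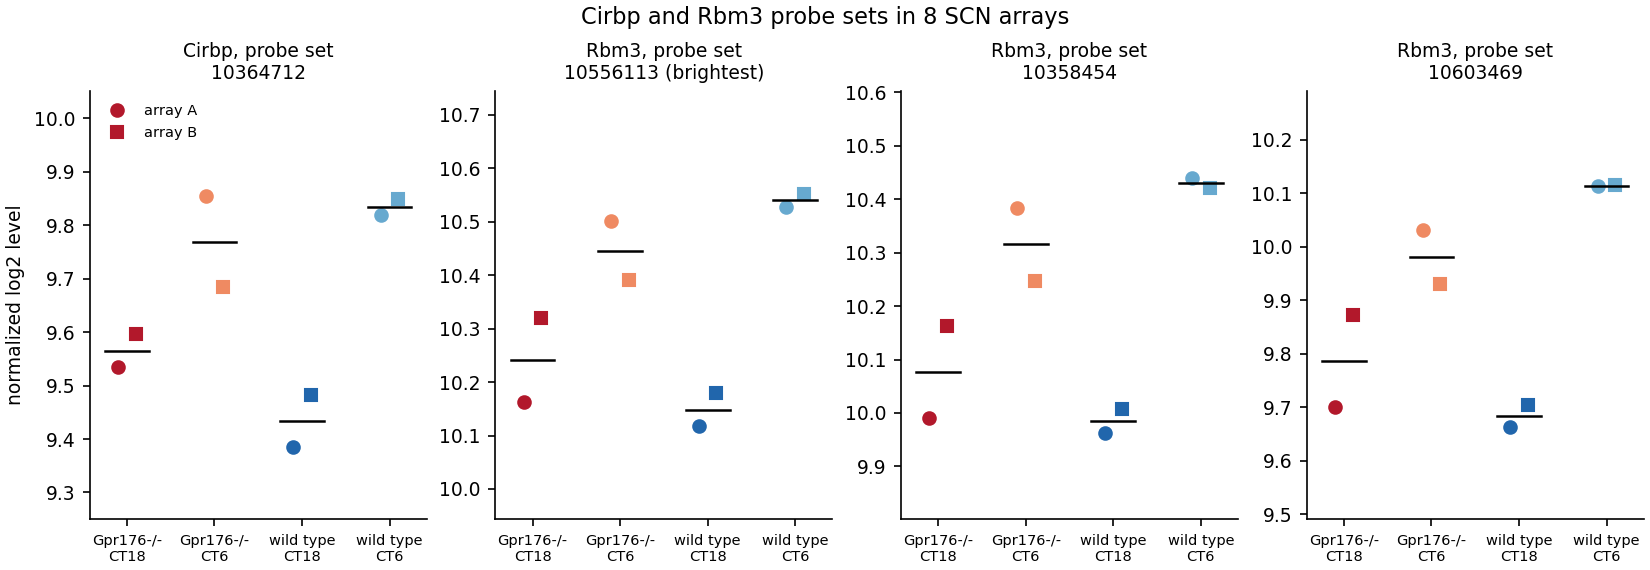
Normalized log2 level of the Cirbp probe set and the 3 Rbm3 probe sets (vertical axes, each spanning 0.8 log2 around the probe set's own mean) in the 4 groups. Circles are array A, squares array B and lines the mean of the 2 arrays. For each probe set the CT18 arrays lie below the CT6 arrays, and the gap between times is wider in wild type than in Gpr176-/-, a difference that did not pass the test.

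The 2 genes were not told apart in the size of their night-time fall. The per-array difference Rbm3 minus Cirbp changed by 0.00386 log2 between CT18 and CT6 arrays (exact permutation test, two-sided, p = 0.857). With either of the other Rbm3 probe sets that value was -0.0391 (exact p = 0.343) or -0.0104 (exact p = 0.743).

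Each of the 3 Rbm3 probe sets was lower at CT18. The brightest, 10556113, gave the values above. Probe set 10358454 fell by 0.34 log2 over both genotypes (limma adjusted p = 0.00168) and probe set 10603469 fell by 0.31 (adjusted p = 0.00206). The files give no probe positions, and the annotation lists the same accessions for each of the 3. RefSeq lists a pseudogene named Rbm3-ps, and signal from near-identical copies cannot be separated from that of Rbm3, so the gene's level is uncertain in this respect. Rbm3os, a long noncoding RNA gene that overlaps Rbm3, has its own probe set. It lay between 5.83 and 5.89 in Gpr176-/- and between 5.78 and 5.91 in wild type, under the filter level in all 8 arrays, and was not tested.

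Among the genes on either side, the neighbours did not share the fall as a group. Midn, next to Cirbp in the RefSeq order and encoding midnolin, which delivers nuclear proteins to the proteasome, fell by 0.21 ± 0.0469 over both genotypes (limma adjusted p = 0.0129). Efna2, an ephrin ligand on the other side, rose by 0.14 ± 0.0355 (adjusted p = 0.0235). Fam174c (0.10, adjusted p = 0.257) and Atp5d, a subunit of ATP synthase (-0.02, adjusted p = 0.751), did not pass. Around Rbm3, the tested genes Wdr13, Tbc1d25 and Ebp had values of 0.03, 0.12 and 0.04 with adjusted p-values from 0.220 to 0.704. These neighbours were picked by position alone.

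Within each genotype the same comparison rests on 2 arrays a side. In Gpr176-/- mice Cirbp averaged 9.57 ± 0.0437 at CT18 and 9.77 ± 0.121 at CT6 (SD, n = 2 each). The difference was -0.20 ± 0.0682 (SE), with a limma adjusted p of 0.110. For Rbm3 the Gpr176-/- means were 10.24 ± 0.111 at CT18 and 10.45 ± 0.0770 at CT6 (SD, n = 2 each), a difference of -0.21 ± 0.0673 (SE) with a limma adjusted p of 0.104. The unadjusted limma p-values were 0.0142 for Cirbp and 0.0129 for Rbm3. In this contrast 2807 of the 12452 genes tested had an unadjusted p under 0.05. The Cirbp difference was -0.12 without Gpr176-/- at CT6 A and -0.29 without Gpr176-/- at CT6 B. That of Rbm3 was -0.13 without Gpr176-/- at CT18 A and -0.28 without Gpr176-/- at CT18 B. Neither gene passed in a contrast where 7.16% of genes did (3.63% higher and 3.53% lower).

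In wild type both passed. Cirbp averaged 9.43 ± 0.0688 at CT18 and 9.83 ± 0.0205 at CT6 (SD, n = 2 each), a difference of -0.40 ± 0.0682 (SE, limma adjusted p = 0.00812) and a change in signal of -24.2%. Rbm3 averaged 10.15 ± 0.0438 at CT18 and 10.54 ± 0.0170 at CT6, a difference of -0.39 ± 0.0673 (SE, limma adjusted p = 0.00838) and a change in signal of -23.8%. The contrast called 6.94% of genes tested, 4.40% higher and 2.54% lower. The wild-type calls were lost without wild type at CT18 A (adjusted p = 0.0679 for Cirbp and 0.0660 for Rbm3) and without wild type at CT6 B (0.0624 and 0.0638), while the differences stayed between -0.45 and -0.35 without any 1 array.

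The day-night change was not shown to differ between the genotypes. The interaction, the CT18 minus CT6 change in Gpr176-/- minus that in wild type, was 0.20 ± 0.0965 for Cirbp (95% interval -0.02 to 0.41, limma adjusted p = 0.944). For Rbm3 it was 0.19 ± 0.0952 (95% interval -0.03 to 0.40, adjusted p = 0.944). Unadjusted p-values were 0.0709 and 0.0800. The value was 0.11 for Cirbp without Gpr176-/- at CT6 B and 0.28 without Gpr176-/- at CT6 A. For Rbm3 it was 0.11 without Gpr176-/- at CT18 B and 0.26 without Gpr176-/- at CT18 A. The other Rbm3 probe sets gave 0.21 (10358454) and 0.24 (10603469). The interaction called 0 of 12452 genes (0.00%) in limma, with 605 at an unadjusted p under 0.05. Both intervals include 0. They also include a difference as large in size as the whole wild-type change (-0.40 for Cirbp and -0.39 for Rbm3).

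Set by genotype at one time, neither transcript differed past the threshold. At CT18 Cirbp averaged 9.57 in Gpr176-/- and 9.43 in wild type (0.13 ± 0.0682, 95% interval -0.02 to 0.28, limma adjusted p = 0.444), and Rbm3 averaged 10.24 and 10.15 in the same order of genotypes (0.09 ± 0.0673, 95% interval -0.06 to 0.24, adjusted p = 0.570). At CT6 Cirbp averaged 9.77 in Gpr176-/- and 9.83 in wild type (-0.06 ± 0.0682, 95% interval -0.22 to 0.09, adjusted p = 0.975). Rbm3 at CT6 averaged 10.45 in Gpr176-/- and 10.54 in wild type (-0.09 ± 0.0673, 95% interval -0.24 to 0.06, adjusted p = 0.975). For both genes the knockout mean was the higher at CT18 and the lower at CT6, by amounts that did not pass. At CT18 the difference was 0.07 for Cirbp and 0.03 for Rbm3 with median centring, and 0.06 for Rbm3 with the deposited values. Without wild type at CT18 A it was 0.08 for Cirbp and 0.06 for Rbm3, and for Rbm3 it was 0.01 without Gpr176-/- at CT18 B and 0.17 without Gpr176-/- at CT18 A. At CT6 the difference was -0.15 for both genes without Gpr176-/- at CT6 A, and 0.02 for Cirbp and -0.04 for Rbm3 without Gpr176-/- at CT6 B. Over both times the differences were 0.03 ± 0.0482 for Cirbp (adjusted p = 0.793) and -0.000772 ± 0.0476 for Rbm3 (adjusted p = 0.997). Knockout against wild type called 0.00803% of genes at each time and 0.0241% over both, and Gpr176 was called at each.

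**Figure D2:**
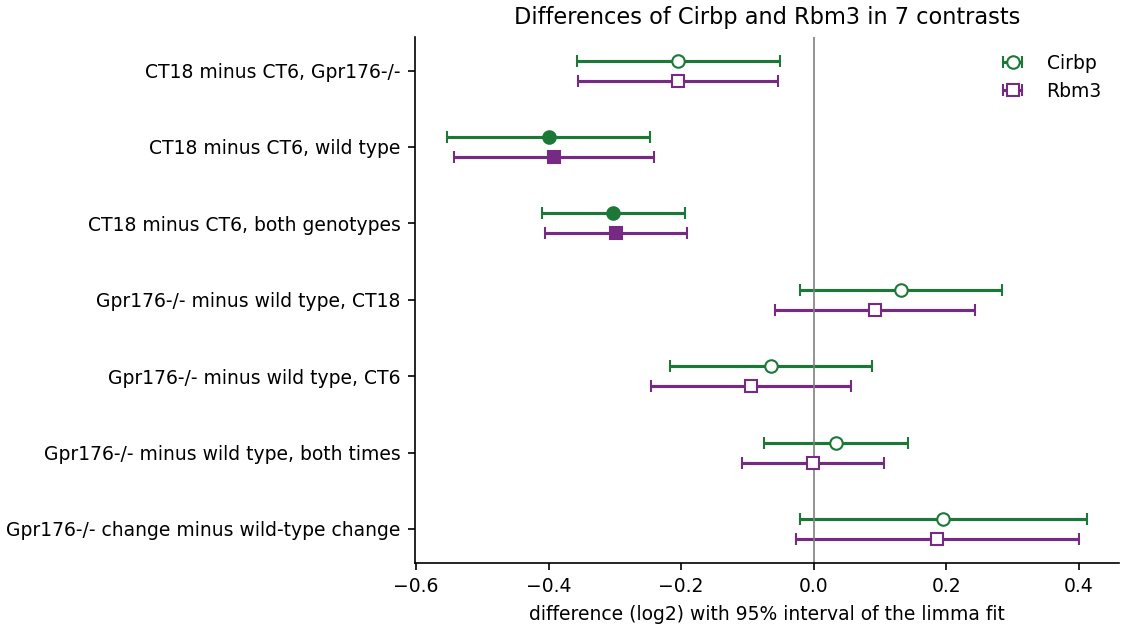
Differences of Cirbp (circles) and Rbm3 (squares) on the log2 scale (horizontal axis) in 7 contrasts, with 95% intervals of the limma fit as bars. Filled symbols had an adjusted p under 0.05, which holds for CT18 minus CT6 in wild type and over both genotypes.

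The order of the groups was the same for both genes, from wild type at CT6 at the top through Gpr176-/- at CT6 and Gpr176-/- at CT18 to wild type at CT18 at the bottom. The 2 groups of the same time stood next to each other in that order and did not differ past the threshold. Deviations between the arrays of a group were also alike. Array B minus array A was 0.06 in Gpr176-/- at CT18, -0.17 in Gpr176-/- at CT6, 0.10 in wild type at CT18 and 0.03 in wild type at CT6 for Cirbp. For Rbm3 these values were 0.16, -0.11, 0.06 and 0.02. The sign was shared in 4 of 4 groups, as it was with Cirbp for 4.69% of all genes tested.

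The closeness of the pair was measured as the root mean square difference between 2 log2 profiles over the 8 arrays, each centred on its own mean. By that measure Rbm3 was the gene most like Cirbp among 11677 ranked, at 0.0346 log2, and Cirbp was in turn the gene most like Rbm3. Cirbp itself varied around its mean by 0.168 and Rbm3 by 0.164. The rank was 1 with the values as deposited too (0.0304), and 2 when either of the other Rbm3 probe sets stood for the gene (0.0453 and 0.0451). The profiles share arrays, and most of their shape is the contrast of times, so the measure is a description.

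Next after Rbm3, the genes most like Cirbp were Slc9a3r1 (0.0404), a membrane scaffold protein, Pcsk4 (0.0511), a proprotein convertase, Foxn4 (0.0553), a forkhead transcription factor, and Rln1 (0.0570), a relaxin. For Rbm3 they were Hnrnpdl (0.0419), an RNA-binding protein of the hnRNP D group, Upp2 (0.0431), a uridine phosphorylase, Foxn4 (0.0440) and Mthfd1l (0.0456), a mitochondrial enzyme of one-carbon metabolism. Over both genotypes their CT18 minus CT6 differences ran from -0.25 for Pcsk4 and Hnrnpdl to -0.34 for Mthfd1l. Foxn4, Pcsk4, Rln1, Upp2 and Mthfd1l had mean levels between 7.24 and 7.82, nearer to the filter level than the members.

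**Figure D3:**
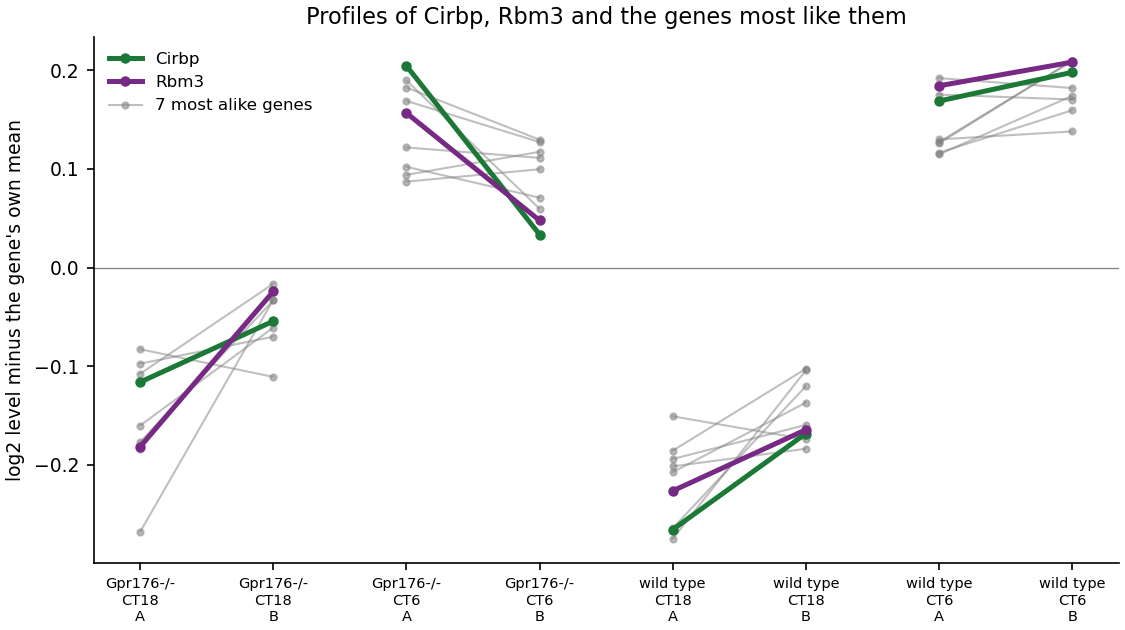
Log2 level minus the gene's own mean (vertical axis) in the 8 arrays for Cirbp and Rbm3 (thick lines) and the 7 genes most like either (thin grey lines). Lines join arrays A and B of a group. All profiles shown are above 0 at CT6 and below 0 at CT18.

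Heat shock genes moved the opposite way. Of 20 tested, 17 rose at CT18 over both genotypes and 0 fell (17 at an unadjusted p under 0.05), where 10.0% of all genes tested rose. The same contrast had 3793 of the 12452 genes tested at an unadjusted p under 0.05, to be set beside the lists below too. The median change of the list was 0.32 log2, against 0.01 over all genes tested. Dnajb1, an HSP40 cochaperone (0.99), Hsph1, an HSP110 chaperone (0.63), Stip1, which links HSP70 with HSP90 (0.44), and Chordc1, an HSP90 cochaperone (0.71), had the smallest p-values (limma adjusted p = 1.08e-05, 1.21e-05, 4.25e-05 and 5.26e-05). Hspa4, Bag3 and Cryab had values of 0.07, 0.07 and 0.12 and did not pass. No body or brain temperature is among the values used here. The part of temperature in the changes of these genes or of Cirbp and Rbm3 was not tested.

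The day-night change of the heat shock genes was not shown to differ between the genotypes either. The mean of the 20 heat shock genes was 10.20 and 10.24 in Gpr176-/- at CT18 and 10.29 and 10.33 in wild type at CT18. At CT6 it lay between 9.88 and 9.91 in Gpr176-/- and between 9.88 and 9.90 in wild type. The median night-time change of the list was 0.31 in Gpr176-/- and 0.38 in wild type. The interaction had a median of -0.08 over the 20 genes, against -0.01 over all genes tested. In limma 0 of the 20 passed and 2 had an unadjusted p under 0.05, as had 605 of all 12452 genes tested. The widest gap was that of Hspb1, the small heat shock protein HSP27, at 0.31 in Gpr176-/- and 0.80 in wild type (interaction -0.49, adjusted p = 0.944). All of these comparisons use the same 8 arrays as those of Cirbp and Rbm3.

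**Figure D4:**
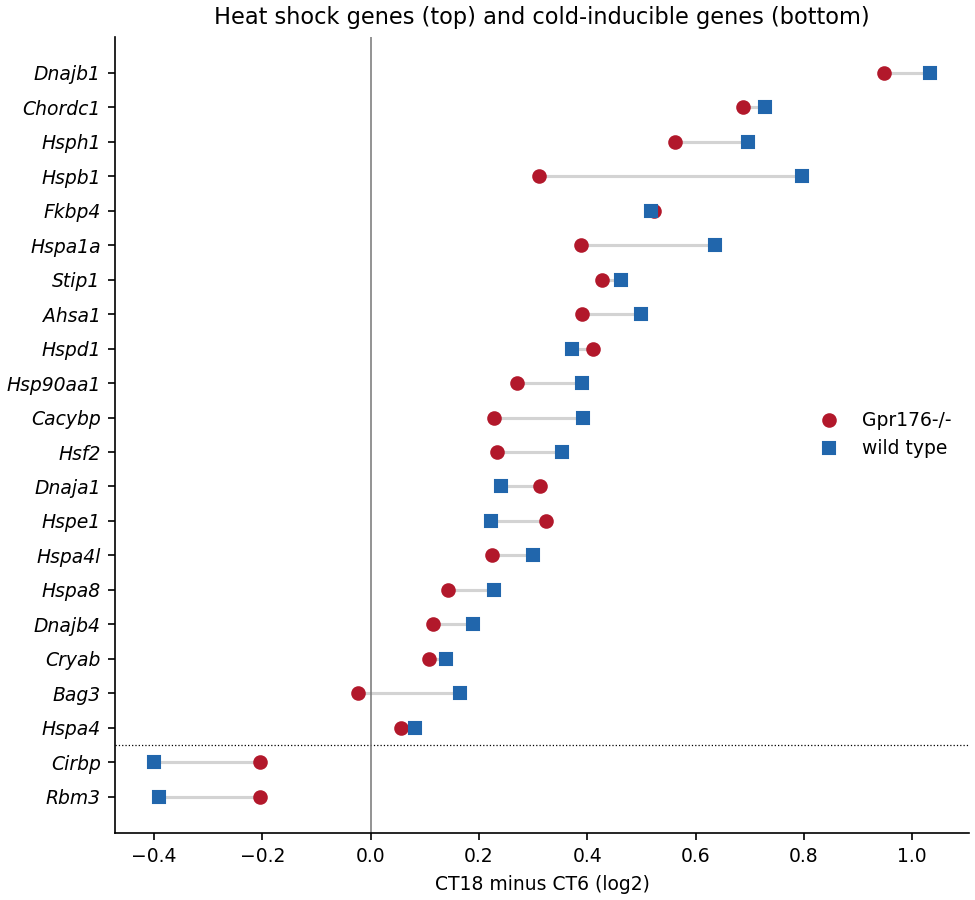
CT18 minus CT6 change on the log2 scale (horizontal axis) of 20 heat shock genes, above the dotted line, and of Cirbp and Rbm3, below it, in Gpr176-/- (circles) and wild type (squares). The pair lies left of 0 at about -0.20 and -0.40 in the 2 genotypes, and the heat shock genes lie right of 0 apart from Bag3 in Gpr176-/- (-0.02).

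The other genes of the Rbm name family were looked at beside Rbm3. The name stands for RNA-binding motif and groups proteins of varied function. Of 32 tested, 4 fell and 3 rose at CT18 over both genotypes, with a median of -0.000894 log2 for the family. Rbm3, the gene for whose sake the family was looked at, is 1 of the 4. Among all genes tested 6.79% fell and 10.0% rose, and nothing is read from family counts this small. Rbm11, a splicing regulator of brain and testis, fell the most (-0.48, limma adjusted p = 7.65e-05), and Rbm3 came next. Rbm7, a subunit of the nuclear exosome targeting complex, fell by 0.26 (adjusted p = 0.00127), and Rbmx, the splicing factor hnRNP G, fell by 0.18 (adjusted p = 0.0305). Rbm10 (0.23), Rbm45 (0.22) and Rbm38 (0.20) rose, with adjusted p-values from 0.00421 to 0.00700. Rbm11 fell in Gpr176-/- by 0.60 and in wild type by 0.36, the order opposite to that of Rbm3.

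**Figure D5:**
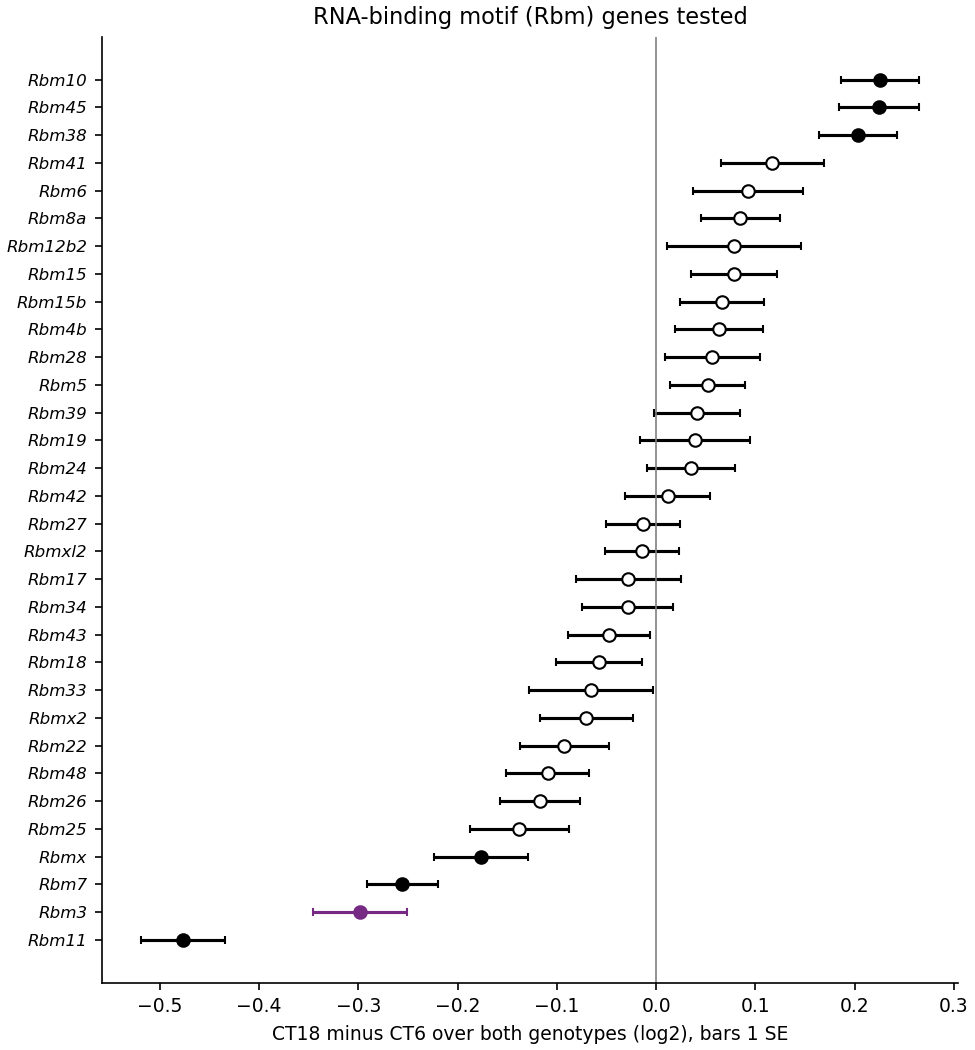
CT18 minus CT6 change over both genotypes on the log2 scale (horizontal axis, bars 1 SE of the limma fit) of the 32 Rbm genes tested, with Rbm3 in purple. Filled symbols had an adjusted p under 0.05. Rbm3 has the second lowest value after Rbm11.

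Proteins with a cold shock domain, a different RNA-binding fold shared with bacterial cold shock proteins, had 1 of 6 tested genes higher at CT18 and 0 lower over both genotypes (1 at an unadjusted p under 0.05), too few to set against the 10.0% higher and 6.79% lower of all genes tested. The higher gene was Ybx3, a Y-box protein (0.20 ± 0.0391, limma adjusted p = 0.00722). Csdc2 (0.01) and Ybx1 (0.09) did not pass.

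Genes reported to act on Cirbp or Rbm3 did not pass the test over both genotypes in limma (0 of 6 tested, 1 at an unadjusted p under 0.05). With 16.8% of all genes tested called in this contrast and 3793 of 12452 at an unadjusted p under 0.05, neither count sets them apart. Sp1, the factor of the cold-responsive element, stood at 0.01 ± 0.0501 (adjusted p = 0.906), and Hnrnph1, which controls splicing of an Rbm3 exon, at 0.01 ± 0.0381 (adjusted p = 0.944). Ntrk2, the BDNF receptor upstream of RBM3 in cooled neurons, stood at 0.02 ± 0.0384 (adjusted p = 0.739). Of the CLK kinases, whose activity depends on temperature, Clk1 (0.04), Clk3 (0.05) and Clk4 (-0.13, adjusted p = 0.0650) did not pass. Trpv4, a warmth-sensitive channel linked to both genes, was under the filter level with a mean of 6.55. Hsf1 and Clk2 had no probe set of their own symbol among those used.

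Of the 3 temperature-sensitive TRP channels tested, Trpv2 (-0.19, limma adjusted p = 0.00798) and Trpc5 (-0.18, adjusted p = 0.0343) fell over both genotypes. Trpm3 (0.03) did not pass. These 3 genes are too few to set against the 6.79% of all genes tested that fell. The other 8 of the 11 channels looked at, Trpv4, Trpm2 and Trpm8 included, were under the filter level.

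RNAs reported as targets of CIRBP or RBM3 did not pass either in limma (0 of 6 tested, 1 at an unadjusted p under 0.05), and this count too is not set apart from the 16.8% of all genes called. Clock, the CLOCK subunit of the activator and a reported CIRBP target, stood at 0.12 ± 0.0492 (adjusted p = 0.118). Rtn3, a reticulon downstream of RBM3 in synapse maintenance, stood at -0.04 ± 0.0431 (adjusted p = 0.605). Txn1 (0.00), thioredoxin, Rpa2 (0.06) and Atr (-0.09), both of DNA replication stress, and Vegfa (-0.07), the endothelial growth factor, did not pass. Ptgs2 was under the filter level. RNA levels do not show binding, translation or the polyadenylation site used.

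Of the 14 core clock genes tested, 11 fell and 1 rose at CT18 over both genotypes, against 6.79% and 10.0% of all genes tested. Those with the smallest p-values were Per1, Ciart (-2.03), Dbp and Per2 (-1.48). Among 19 cleavage and polyadenylation factors, 2 rose and 0 fell (4 at an unadjusted p under 0.05), namely Papola, a poly(A) polymerase (0.20, limma adjusted p = 0.0174), and Cpsf2 (0.16, adjusted p = 0.0330). That count is near the 10.0% of all genes tested that rose, and the median of the list was 0.02, close to the 0.01 of all genes.

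Markers of other cell types were measured beside the pair. Over both genotypes 0 of 7 oligodendrocyte, 0 of 6 microglia and 0 of 6 leptomeningeal markers passed the test, while 1 of 8 astrocyte markers rose and 1 fell, 2 of 6 endothelial and mural markers fell and 1 of 5 ependymal and tanycyte markers fell. Of all genes tested 10.0% rose and 6.79% fell, and nothing is read from counts this small. The leptomeningeal markers had a median CT18 minus CT6 value of -0.59 in Gpr176-/- and 0.05 in wild type. Their mean ranged from 8.15 to 8.20 in Gpr176-/- at CT18 and 8.40 to 8.91 in Gpr176-/- at CT6, against 8.18 to 8.91 in wild type at CT18 and 8.31 to 8.73 in wild type at CT6. Array B minus array A of the leptomeningeal mean was 0.04 in Gpr176-/- at CT18, -0.51 in Gpr176-/- at CT6, -0.72 in wild type at CT18 and 0.42 in wild type at CT6. Its sign was that of Cirbp and Rbm3 in both Gpr176-/- groups and in wild type at CT6, and opposite to theirs in wild type at CT18. This was not particular to the leptomeningeal list. The oligodendrocyte, astrocyte and microglia means had the same sign as the leptomeningeal mean in each group. The endothelial and mural mean differed from it in sign in Gpr176-/- at CT18 (-0.00209). The ependymal and tanycyte mean had the sign of Cirbp and Rbm3 in each group. The part of these markers in the results was not tested.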

How the data were processed

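The authors deposited 1 table of log2 values for 28853 probe sets and 8 arrays. Background correction, summarisation and scaling are not given in the sources used here. Per the labels' protocols, RNA was column-purified and cDNA was prepared and labelled for whole-transcript arrays. The deposited medians ran from 7.34 to 7.39. Array lower quartiles differed by up to 0.139 log2, more than the 0.1 allowed, so the columns were quantile normalized; a shift common to most genes would then not show.

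Platform annotation gave 21789 probe sets 1 symbol, 1621 several, and 5443 none; only the first were used, the brightest per gene. Symbols were looked up by Entrez number in the RefSeq table of GRCm38.p6, which matched 21698. Genes under the 40th percentile of probe sets (6.82 log2) were left out. Group means were fitted to the 8 arrays with limma 3.58.1 in R 4.3.3 (4 residual and 5.58 prior degrees of freedom), with Benjamini-Hochberg adjustment over 12452 genes and a threshold of 0.05. The fit was tested on simulated data. Precision is limited by having 2 arrays a group. Promoter windows are from RefSeq.

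The members and lists were chosen with earlier results of these data known. Named genes are the members, Gpr176, the 5 genes most like each member (provisional symbols and the Mir, Snor, Olfr and Vmn families left out), up to 4 called genes per list by smallest p over both genotypes, and all tested regulators and targets; others named were chosen after their values were seen. Alternatives were the deposited values, median centring, no filter or a filter at the 60th percentile, the mean of a gene's probe sets, an intensity trend, a replicate block, only the groups compared and leaving out each array. The other Rbm3 probe sets were added after seeing the data. Arrays that share a letter did not deviate in one consistent direction, so the letters were not taken as pairs. For 6 pairs of A arrays the correlation of deviations from group means was of mixed sign, between -0.222 and 0.257.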

Additional observations from a re-analysis of the deposited data

How the results depend on the processing

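The night-time falls of Cirbp and Rbm3 over both genotypes passed the limma threshold under each alternative run, including without each array in turn (differences from -0.35 to -0.26, highest adjusted p 0.0146). In wild type they passed under each alternative that left out no wild-type array. Without 1 array the wild-type difference ran from -0.449 to -0.352 for Cirbp and from -0.424 to -0.362 for Rbm3, and the call was lost without wild type at CT18 A or at CT6 B. In Gpr176-/- neither gene passed under any alternative (lowest adjusted p 0.0588), nor did the interaction (lowest 0.587). Without 1 array the Gpr176-/- difference ran from -0.290 to -0.119 for Cirbp and from -0.285 to -0.126 for Rbm3, the interaction from 0.111 to 0.282 and from 0.108 to 0.263, and knockout minus wild type at CT18 from 0.0831 to 0.180 and from 0.0140 to 0.170. With the letters as a replicate block the falls over both genotypes had adjusted p-values of 0.00507 and 0.00450 at the same differences (-0.302 and -0.298), and the block changed no call of either gene. Values near 0 changed sign. Rbm3 minus Cirbp was -0.00685 with deposited values and with median centring, -0.0152 with mean probe sets, -0.0391 and -0.0104 with the other Rbm3 probe sets, and -0.00923 to 0.0274 without 1 array. Knockout minus wild type over both times was -0.00883 for Cirbp with median centring, -0.0088 to 0.0767 for Cirbp and -0.0400 to 0.0388 for Rbm3 without 1 array. At CT6 that of Cirbp was -0.150 to 0.0215 without 1 array. The causes were not tested. Day-night calls numbered 382 to 511 in Gpr176-/- without 1 knockout array and 590 with median centring (against 891), 315 to 492 in wild type without 1 wild-type array (against 864), and 1378 over both genotypes without Gpr176-/- at CT18 B (against 2096). Knockout against wild type called 1 to 3 genes at each time and 1 to 7 over both times, against 1, 1 and 3. With 2 arrays a group, the median standard error was 0.0636 log2 for 2 groups and 0.0899 for the interaction, which limits what could be seen in the knockout contrasts.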
